A study of Mus musculus with 36 samples.

Results

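The 10 genes described here are Gfap, Vim, Serpina3n, Lcn2, Timp1, Cp, Osmr, Cd44, Aspg and Srgn, a set widely used to mark reactive astrocytes, picked by symbol from the 24421 symbols of the count tables. All 10 were found in all 4 tables. They were measured by RNA sequencing of polyadenylated RNA from mouse hippocampus in 36 libraries of 6 groups, with 3 females and 3 males in each group. The wild-type C57BL/6 groups were old mice given a nanoligomer at 18 months, old mice labelled control (called untreated below) at 18 months and young control mice at 8 months. The amyloid groups, all at 4 months, were APP/PS1 mice given a nanoligomer, control APP/PS1 mice (untreated below) and control non-carrier littermates. According to its title, the study lowered NF-κB and NLRP3 in aging and in amyloid transgenic mice. Not given in the sources used here are the APP/PS1 line and its promoter, what the nanoligomer's sequence was, how much was given or for how long, and whether each library came from its own animal, so p-values measure the spread between libraries.

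Astrocytes respond to injury, amyloid and inflammation by enlarging their intermediate filament network and by secreting protease inhibitors, complement and acute-phase proteins. Signals of the interleukin-6 family, read by the oncostatin M receptor and passed on through STAT3, and NF-κB signalling downstream of interleukin-1 and TNF are the best-studied inducers of this state in mice. In the healthy hippocampus Gfap is already abundant in astrocytes, more so than in cortex or striatum, so its bulk level can differ between regions. In bulk tissue fewer cells of a type and less RNA per cell cannot be told apart.

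Of the 36 libraries, 35 were used. They held 27.6 M to 46.3 M reads and 17358 to 19284 genes with a read. The treated APP/PS1 female 3 held 0.913 M reads, listed Gfap, Serpina3n, Aspg, Lcn2, Timp1 and Srgn at 0 and was left out. App, the gene of the amyloid precursor, stood at 3906 to 4462 CPM (reads scaled to the same total in every library) in treated APP/PS1 mice and at 2792 to 4327 CPM in untreated APP/PS1 mice, against 1653 to 1786 CPM in littermates. Both carrier groups thus lay apart from littermates for App. One untreated APP/PS1 library, female 3, stood apart for most of the 10 genes, and the comparisons of the amyloid groups are given with and without it. Libraries also differed in regional markers. The summed level of 7 striatum markers exceeded 500 CPM in 5 libraries (treated old female 3, old male 3, young male 2, treated APP/PS1 male 2 and APP/PS1 female 1), against 197 to 227 CPM in littermates, and the choroid plexus sum ran between 13.99 and 4194 CPM over the 35 libraries.

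The start-site windows of the 10 genes show which letters of known astrocyte regulators lie next to them. In RefSeq windows (mouse build GRCm38.p6, 250 bases before to 50 after each annotated start, 12 windows for the 10 genes) 4 motifs were searched on both strands. The STAT motif, TTCNNNGAA, was present in 1 of the 10 genes, Gfap, and in 8.00% of 20771 windows of genes in the tables. The NF-κB motif, GGGNNTTCC, was present in 2 (Gfap and Vim) and in 6.26% of windows, the AP-1 motif, TGANTCA, in 2 (Cp and Osmr) and in 7.29%, and the C/EBP motif, TTNNGCAA, in 2 (Lcn2 and Cp) and in 10.1%. A match is a description of letters, and the matches listed do not overlap each other. The NF-κB pattern searched is 1 form of 9 letters, and other forms of the site were not searched. The 10 genes are counted by gene and the background by window.

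Gfap is shown because it is the most abundant of the 10 and holds both a STAT and an NF-κB match. Its stretch is chr11:102897194-102897360, minus strand, written 5′ to 3′, with the NF-κB match (first) and the STAT match (last, across the RefSeq start) in capitals. This RefSeq start lies inside the longer GENCODE span of Gfap. Serpina3n is shown because, of the other members, it varied most closely with Gfap. It had none of the 4 motifs in its window (chr12:104406548-104406707, plus strand).
Gfap: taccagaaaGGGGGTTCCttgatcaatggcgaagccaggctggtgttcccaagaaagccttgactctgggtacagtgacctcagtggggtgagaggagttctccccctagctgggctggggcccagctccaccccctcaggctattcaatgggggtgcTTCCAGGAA
Serpina3n: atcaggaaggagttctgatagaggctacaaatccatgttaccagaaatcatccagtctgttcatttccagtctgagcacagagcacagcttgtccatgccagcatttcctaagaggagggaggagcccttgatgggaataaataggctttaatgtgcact

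For the other matches the surrounding bases are given with the match in capitals. The Vim stretch (chr2:13574061-13574120, plus strand) holds the NF-κB match on the opposite strand, and the Lcn2 stretch (chr2:32387930-32387989, minus strand) holds the C/EBP match on the opposite strand. Cp had matches in separate windows, AP-1 at chr3:19956847-19956906 and C/EBP at chr3:19957149-19957208, both plus strand. The Osmr stretch (chr15:6874304-6874343, minus strand) holds AP-1 just after the start.
Vim: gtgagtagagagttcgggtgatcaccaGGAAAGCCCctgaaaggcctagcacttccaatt
Lcn2: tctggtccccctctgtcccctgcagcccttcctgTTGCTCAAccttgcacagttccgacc
Cp, AP-1: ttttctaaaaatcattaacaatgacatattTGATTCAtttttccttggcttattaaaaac
Cp, C/EBP: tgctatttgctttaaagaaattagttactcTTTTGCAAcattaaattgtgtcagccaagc
Osmr: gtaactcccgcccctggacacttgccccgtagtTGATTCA

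Per length of exon sequence the 10 genes covered more than 2 orders of magnitude. Gfap, the glial filament protein, averaged 97.6 RPKM (CPM per kilobase of exon, over 35 libraries, range 19.9 to 497), above Serpina3n, a secreted serine protease inhibitor, at 20.1 RPKM (5.55 to 90.6), and Vim, the filament protein vimentin that co-assembles with GFAP, at 10.5 RPKM (5.09 to 68.9). The other 7 were low. Srgn, the core protein of the granule proteoglycan serglycin, averaged 2.52 RPKM, Timp1, an inhibitor of matrix metalloproteinases, 1.91 RPKM, Cp, the copper-binding ferroxidase ceruloplasmin, 1.52 RPKM, and Aspg, an asparaginase, 1.196 RPKM. Cd44, the hyaluronan receptor, averaged 0.909 RPKM, Osmr, the oncostatin M receptor subunit, 0.602 RPKM, and Lcn2, the iron-siderophore carrier lipocalin 2, 0.422 RPKM, with 0 reads in some libraries. Neighbours among the lower 7 had overlapping ranges over libraries.

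All 10 are protein-coding (GENCODE vM21 on GRCm38). Gfap lies at chr11:102887336-102900912 and Serpina3n at chr12:104406729-104414329. Vim lies at chr2:13573927-13582826. Gfap, Cd44, Cp and Timp1 overlap a gene on the opposite strand (Gm26668, Gm23731, Hps3 and Syn1) and Aspg overlaps the microRNA genes Mir3073a and Mir3073b. Whether counting used strand is not given in the sources used here, so reads of such partners cannot be told apart.

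**Figure D1:**
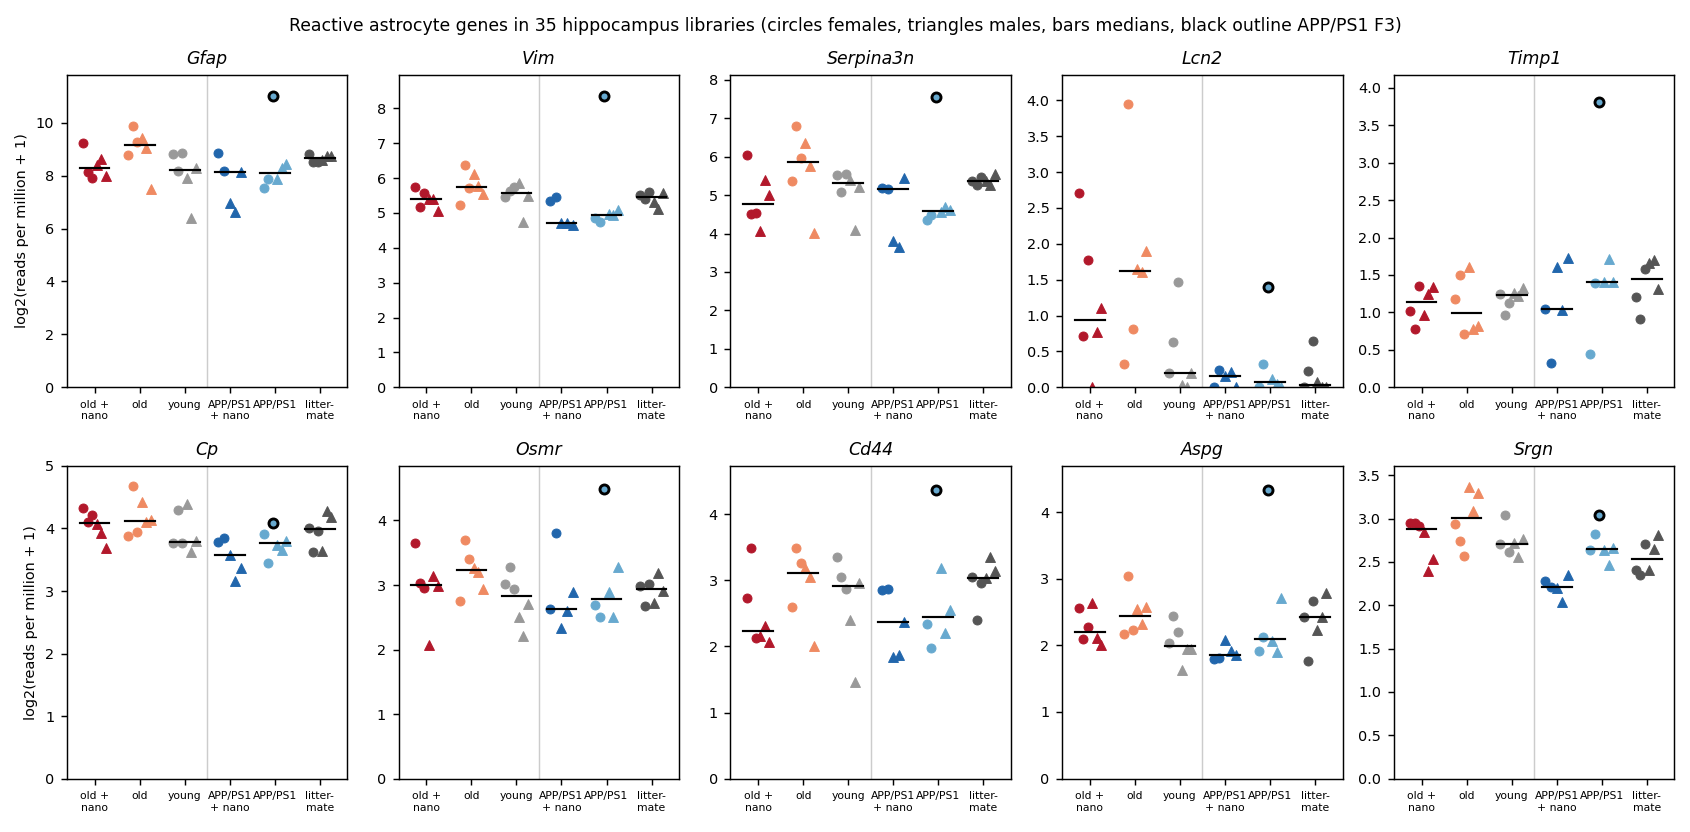
Level of each of the 10 genes, as log2(CPM + 1), in 35 hippocampus libraries of 6 groups (circles females, triangles males, bars group medians). APP/PS1 female 3, outlined in black, is the highest APP/PS1 library for all 10 genes, at 2095 CPM for Gfap where the other 5 lie between 186 and 344 CPM.

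Across the 6 groups Gfap averaged 83.1 ± 31.7 RPKM in treated old, 134 ± 60.1 in old and 72.8 ± 33.9 in young mice (SD, n = 6 each). It averaged 59.2 ± 34.6 RPKM in treated APP/PS1 (n = 5), 135 ± 178 in APP/PS1 and 95.8 ± 8.73 in littermates (SD, n = 6 each). Littermates varied least, and the APP/PS1 mean includes female 3 at 497 RPKM. Among the wild-type groups Serpina3n too was highest in old mice, at 15.8 ± 8.66 RPKM in treated old, 29.2 ± 16.0 in old and 17.6 ± 5.39 in young mice. Lcn2 was above 1 RPKM on average in old mice alone among the 6 groups, at 1.43 ± 2.04 RPKM, a spread wider than its mean.

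Old mice had higher levels than young mice for 9 of the 10 genes, but in no case did the difference pass an adjusted p of 0.05. The median log2 fold change of the 10 was 0.42, beside -0.0039 over all 16626 genes tested, and the fit called 6 genes in all (0.0361% of those tested, limma with Benjamini-Hochberg adjustment over all genes, as for every adjusted p below unless another tool is named). Of the 10, 4 had an unadjusted p under 0.05 (Gfap, Lcn2, Osmr and Aspg), as did 6.13% of all genes. The ranges of old and young overlapped for every one of the 10. All values of a comparison are the authors' normalized counts of that table.

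Gfap stood at 7338 at the lowest, 23373 at the median and 37365 at the highest in 6 old libraries, against 3471, 11997 and 18844 in 6 young libraries. Both groups thus spread several-fold, and 4 of 6 old libraries lay above the highest young one. The log2 fold change was 0.92 (SE 0.37, 95% interval 0.12 to 1.72, adjusted p = 0.747). Vim averaged 2277 ± 645 in old and 1798 ± 398 in young mice (SD, n = 6 each), a log2 fold change of 0.33 with an adjusted p of 0.858. Serpina3n averaged 2427 ± 1306 in old and 1447 ± 439 in young mice, 0.59 on the log2 scale with an adjusted p of 0.858.

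Lcn2, an acute-phase gene that is nearly silent in resting brain, had the largest fold change of the 10. It stood at 10.3, 84.8 and 577 (lowest, median, highest) in old libraries, against 0, 6.07 and 70.9 in young libraries. The highest value was that of old female 2 and the next old library stood at 111, and all 6 old libraries exceeded the young median. The log2(normalized count + 1) difference was 3.34 (SE 1.04, adjusted p = 0.591), and 2.83 without old female 2. DESeq2's Wald test on the recovered read counts gave 3.92 with an adjusted p of 0.0349, the only call among the 10 in a setting that called 123 genes (0.74%). Neutrophils carry Lcn2 too. The summed level of 6 neutrophil markers ran between 0.637 and 22.3 CPM in old and between 0.351 and 20.9 CPM in young libraries, highest in old male 3 and in young female 3. Young female 3 also had the most Lcn2 of the young libraries, whereas old female 2, with the most Lcn2 of the series, was the lowest old library for neutrophil markers. The part of neutrophil markers in the Lcn2 difference was not tested.

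The receptor genes differed less. Osmr averaged 342 ± 87.9 in old and 242 ± 74.0 in young mice (log2 fold change 0.51, SE 0.19, adjusted p = 0.691). Cd44 had a log2 fold change of 0.32 (SE 0.34), which was 0.066 without young male 2 and 0.12 with the hippocampus markers as a covariate. Aspg, found at 142 to 288 in old and at 79.5 to 176 in young libraries, had a log2 fold change of 0.58 (SE 0.20, adjusted p = 0.665), and all 6 old libraries lay above the young median. Cp (0.29) and Srgn (0.32, unadjusted p = 0.0558) were close to each other in size, and Timp1 was the one gene of the 10 with a negative value (-0.21, SE 0.30). The extremes fell in few libraries, in that old female 2 was the highest old library for 8 of the 10 genes and young male 2 the lowest young one for 8 of the 10.

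Regional and cellular markers moved beside the age difference. All 7 hippocampus markers had positive fold changes (median 0.36) and all 7 striatum markers negative ones (median -0.52), none past the test. Gfap differed by 0.69 with the hippocampus markers as a covariate and by 0.89 without the striatum-rich libraries. All 10 microglia markers were higher (median 0.32) and 1 of them, Trem2, a microglial lipid receptor, rose by 0.76 (SE 0.095, adjusted p = 0.0100). The microglia sum ran between 386 and 536 CPM in old and between 327 and 385 CPM in young libraries. All 10 choroid plexus markers (median -1.97) and all 7 ependymal markers (median -0.72) were lower in old mice, none past the test, and the choroid plexus sum ran between 24.1 and 254 CPM in old and between 13.99 and 4194 CPM in young libraries. With the choroid plexus markers as a covariate the values were 1.37 for Gfap, 0.96 for Serpina3n, 0.78 for Cd44 and 0.53 for Vim, none of them called. The other astrocyte lists differed in how many of their genes were positive. Of 4 other pan-reactive genes 3 were positive with a median of 0.42, led by Cxcl10 (2.94, adjusted p = 0.346). Of 10 other genes of the neurotoxic (A1) list, 9 were positive with a median of 0.65, led by H2-D1, a class I histocompatibility gene (0.75, adjusted p = 0.253). Of 12 other disease-associated astrocyte genes 11 were positive with a median of 0.11, led by the complement gene C4b (1.69, adjusted p = 0.329), and of 16 IL-6 and STAT3 pathway genes 12 were positive with a median of 0.12, led by Bcl3, an NF-κB cofactor (1.11, adjusted p = 0.623). The injury (A2) list was divided, with 6 of 11 positive (median 0.06), and so were the intermediate filament partners, with 4 of 6 positive (median 0.04). None of these was called, and astrocyte identity genes had a median of 0.07, with 13 of 16 positive.

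Nanoligomer treatment of old mice went with lower values for 9 of the 10 genes, again with no call. The fit called 0 of 16517 genes (0%), edgeR 0 and DESeq2 2, while 1192 genes (7.22%) had an unadjusted p under 0.05, among them Vim alone of the 10. The median log2 fold change of the 10 was -0.35, beside -0.0034 over all genes. The untreated old libraries are the same ones as in the age comparison, so the opposite signs of the 2 comparisons are not independent.

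Gfap stood at 8627, 11791 and 22564 (lowest, median, highest) in treated old libraries, against 6859, 21850 and 34883 in untreated old libraries. The treated range lay inside the untreated one, and 1 of 6 treated libraries exceeded the untreated median. The log2 fold change was -0.61 (SE 0.33, 95% interval -1.32 to 0.10, adjusted p = 0.687). Vim averaged 1561 ± 276 in treated and 2128 ± 601 in untreated old mice (SD, n = 6 each), -0.42 on the log2 scale (SE 0.18, unadjusted p = 0.0330 from limma, adjusted p = 0.678). None of the 6 treated libraries exceeded the untreated median of Vim. Serpina3n averaged 1234 ± 679 in treated and 2268 ± 1219 in untreated old mice (-0.81, SE 0.43, adjusted p = 0.687).

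Lcn2 had the largest negative value and the widest error, at 65.2 ± 76.0 in treated and 140 ± 198 in untreated old mice (-1.27, SE 1.14). Among receptors Cd44 had -0.54 (SE 0.30) and Osmr -0.28 (SE 0.25), and Aspg had -0.25, Cp -0.15, Srgn -0.28 and Timp1 0.07. Of the 10 genes Srgn had the smallest p for a difference by sex, with a log2 fold change of -0.76 in males and 0.20 in females, but the difference between them (-0.96, SE 0.24, unadjusted p = 0.00198 from limma) had an adjusted p of 0.914. Lcn2 had a larger difference with a wide error (-3.03 in males, 0.49 in females, difference -3.52, SE 2.14). The age effect of Srgn had the opposite sex pattern (0.68 in males, -0.04 in females, difference 0.72 with an adjusted p of 0.983), from the same untreated males.

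Region moved with this comparison as well. All 7 hippocampus markers were lower in treated old mice (median -0.60) and all 7 striatum markers higher (median 0.58), none past the test, and the hippocampus sum ran between 189 and 566 CPM in treated and between 150 and 677 CPM in untreated old libraries. With the hippocampus markers as a covariate the values were -0.19 for Gfap, -0.29 for Serpina3n and -0.33 for Vim, and without the striatum-rich libraries -0.75, -1.02 and -0.50. Among the other lists all 10 other A1 genes were lower (median -0.41), led by the complement inhibitor Serping1 (-0.94, adjusted p = 0.678). Of 12 other disease-associated astrocyte genes 11 were lower (median -0.11), led by Fxyd1 (-0.29, adjusted p = 0.678). Of 16 IL-6 and STAT3 pathway genes 12 were lower (median -0.05), led by Cebpd, a C/EBP transcription factor (-1.05, adjusted p = 0.678). Of 11 A2 genes 9 were lower (median -0.30), while 4 of 6 intermediate filament partners were higher (median 0.04). All 10 meningeal markers (median -0.43) and all 6 oligodendrocyte markers (median -0.22) were lower too, none past the test, and the meningeal sum ran between 68.3 and 177 CPM in treated and between 153 and 179 CPM in untreated old libraries. Their part in the differences was not tested. Microglia markers divided evenly (median -0.0073).

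**Figure D2:**
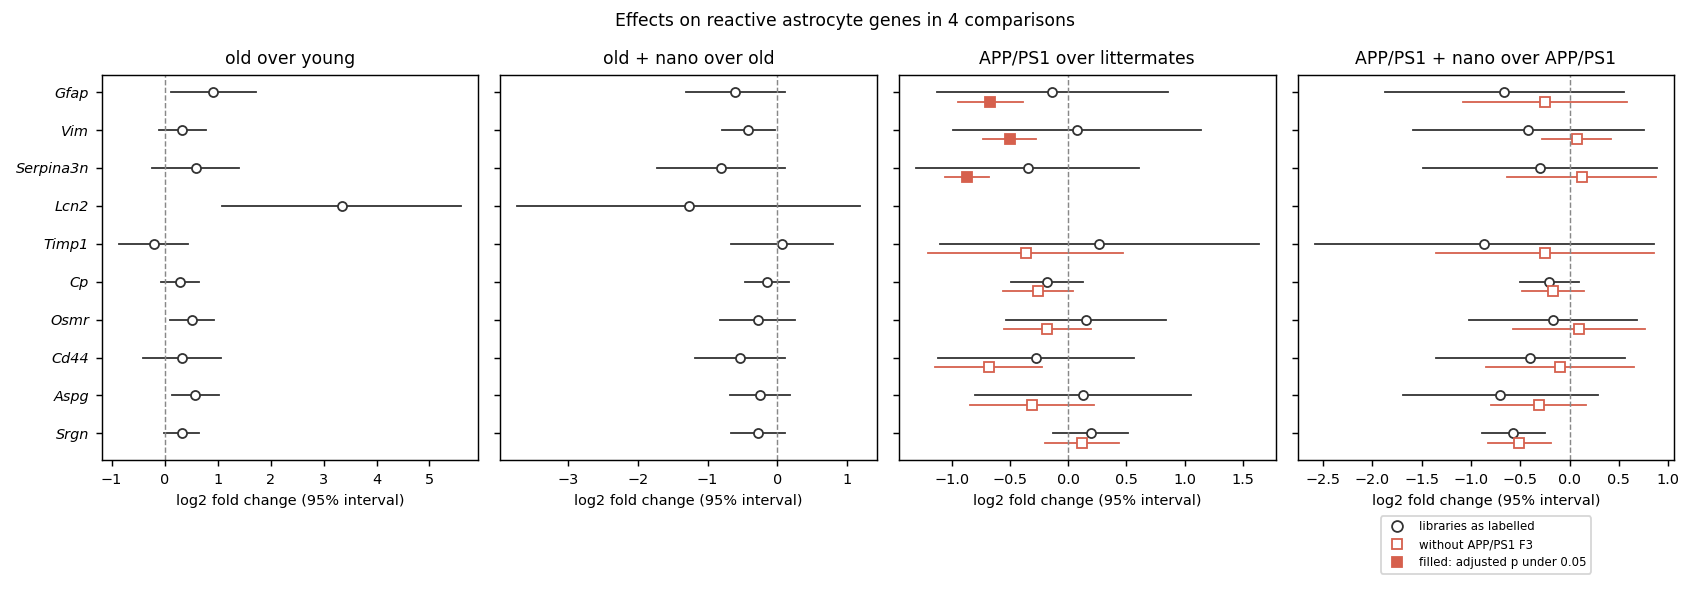
Log2 fold change with its 95% interval for each gene in the 4 comparisons, black circles with all libraries and red squares without APP/PS1 female 3, filled where the adjusted p was under 0.05. Gfap (-0.67), Vim (-0.50) and Serpina3n (-0.87) are the filled points, all in APP/PS1 over littermates without that library.

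In APP/PS1 mice at 4 months against littermates, none of the 10 genes was called in the test on all 12 libraries. The fit called 8 of 16475 genes (0.0486%) and none of the 9 of the 10 genes that passed the filter on low values, Lcn2 being below it. Of the 9, 5 were positive and 4 negative (median 0.08). The error was wide for Gfap (-0.14, SE 0.46) and Vim (0.08, SE 0.49) and smaller for Cp (-0.18, SE 0.14) and Srgn (0.19, SE 0.15). DESeq2 gave no adjusted p for Gfap, Vim and Serpina3n here and called 256 genes, none of the 10. Without 1 APP/PS1 library, described next, the SE of Gfap was 0.13 and that of Vim 0.11.

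APP/PS1 female 3 was the highest of its group for all 10 genes and the highest of all 35 libraries for 7 (Gfap, Vim, Serpina3n, Osmr, Cd44, Aspg and Timp1). Gfap stood at 2095 CPM in it, against 186 to 344 CPM in the other 5 APP/PS1 libraries, 8.84 times their median and 2.23 times the next library of the series. Vim stood at 327 CPM, against 25.8 to 32.97 CPM in the other 5, which is 11.1 times their median. Serpina3n stood at 187 CPM, against 19.3 to 24.9 CPM, 8.33 times their median.

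The low-abundance genes of this library were raised unequally. Timp1 stood at 12.98 CPM, against 0.358 to 2.28 CPM in the other 5 APP/PS1 libraries, Aspg at 19.2 CPM against 2.74 to 5.57 CPM, Cd44 at 19.6 CPM against 2.93 to 8.09 CPM and Osmr at 21.5 CPM against 4.67 to 8.68 CPM. Cp (16.0 CPM, 12th of 35) and Srgn (7.23 CPM, 4th of 35) lay within the range of the series, and Lcn2 stood at 1.64 CPM, 8th of 35. Its App level, 3486 CPM, was within the range of the other APP/PS1 libraries, and its microglia marker sum was 773 CPM against 314 to 394 CPM in the other 5. The library was singled out after its values were seen, and it has no replicate.

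Without APP/PS1 female 3, Gfap, Vim and Serpina3n were lower in the other 5 APP/PS1 libraries than in littermates. That library was left out because of its high values for these genes, which lowers the group mean and its spread. The adjusted p-values below take no account of that choice. The fit then called 256 of 16433 genes, 129 higher and 127 lower, so that 0.773% of genes were called lower, and 3 of the 9 tested members were among them. Of the 9, 8 had a negative fold change (median -0.37, against 0.0002 over all genes). For 2 of the 9, Gfap and Serpina3n, all 5 APP/PS1 libraries lay below all 6 littermates, as for 1.17% of genes. edgeR also called 3 of the 9, among 260 genes in all, and DESeq2 3 of the 9, among 803 of the 16433 genes.

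Gfap stood at 6403 and 8817 in the APP/PS1 females and at 8843, 11738 and 12827 in the males, against 13292, 14884 and 16114 (lowest, median, highest) in littermates. The groups did not overlap, and the means were 9726 ± 2565 (SD, n = 5) and 14740 ± 1227 (SD, n = 6). It fell by 0.67 on the log2 scale (log2 fold change -0.67, SE 0.13, adjusted p = 0.0277). Vim stood at 965 and 964 in the APP/PS1 females and at 1135, 1118 and 1230 in the males, against 1224, 1558 and 1736 in littermates. The ranges met only at the highest APP/PS1 male and the lowest littermate, and the log2 fold change was -0.50 (SE 0.11, adjusted p = 0.0400).

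Serpina3n showed the clearest separation of the 10. It stood at 662 and 803 in the APP/PS1 females and at 837, 943 and 872 in the males, against 1356, 1461 and 1667 (lowest, median, highest) in littermates. The highest APP/PS1 library lay far below the lowest littermate, and the means were 824 ± 104 (SD, n = 5) and 1484 ± 118 (SD, n = 6). The log2 fold change was -0.87 (SE 0.088, adjusted p = 0.0016). The calls of Gfap and Vim depended on the model, while the fold changes stayed close. The adjusted p was 0.0762 for Gfap (-0.64) and 0.0505 for Vim (-0.50) with no sex term, 0.102 (-0.67) and 0.116 (-0.46) with the replicate block, and 0.171 (-0.65) and 0.211 (-0.48) with the choroid plexus markers as a covariate. Serpina3n remained called in each of these. Leaving out 1 further library at a time, Serpina3n stayed called in 11 of 11 fits, Gfap in 5 of 11 (adjusted p 0.0059 to 0.0784, past 0.05 without APP/PS1 female 2 or male 1 or littermate female 1, female 3, male 2 or male 3) and Vim in 3 of 11 (adjusted p 0.0246 to 0.115, under 0.05 without APP/PS1 female 1 or male 3 or littermate male 2).

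The other members were not called. Cd44 had -0.68 (SE 0.21, unadjusted p = 0.00712 from limma, adjusted p = 0.146), at 109 to 302 in the 5 APP/PS1 libraries against 158 to 337 in littermates. Osmr had -0.18, Aspg -0.31, Cp -0.26 and Timp1 -0.37, and Srgn was the one positive value (0.12, SE 0.15). Lcn2 was below the filter, at 0 to 9.36 normalized counts in the 5 APP/PS1 libraries and 0 to 20.3 in littermates.

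The 3 genes had larger fold changes in females than in males, and the difference between the sexes was not called for any of them. In females (2 APP/PS1 libraries against 3) Gfap had -0.92 (adjusted p = 0.0390), Vim -0.74 (adjusted p = 0.0353) and Serpina3n -1.004 (adjusted p = 0.0131), in a fit that called 0.554% of genes lower. In males (3 against 3) Serpina3n had -0.76 (adjusted p = 0.0393) and was the 1 gene called lower, 0.00609% of those tested, while Gfap had -0.46 (adjusted p = 0.443) and Vim -0.31 (adjusted p = 0.546). With female 3 the values in females were 0.19 for Gfap, 0.46 for Vim and 0.07 for Serpina3n, none of them called. Without it the lowest unadjusted p for a sex difference among the 3 was 0.0333, for Vim from limma, with an adjusted p of 0.702. Of the 2 APP/PS1 females then left, female 1 had the highest striatum sum of the group (2219 CPM). Female 2 had its lowest hippocampus sum (239 CPM). The part of region in the values by sex was not tested.

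**Figure D3:**
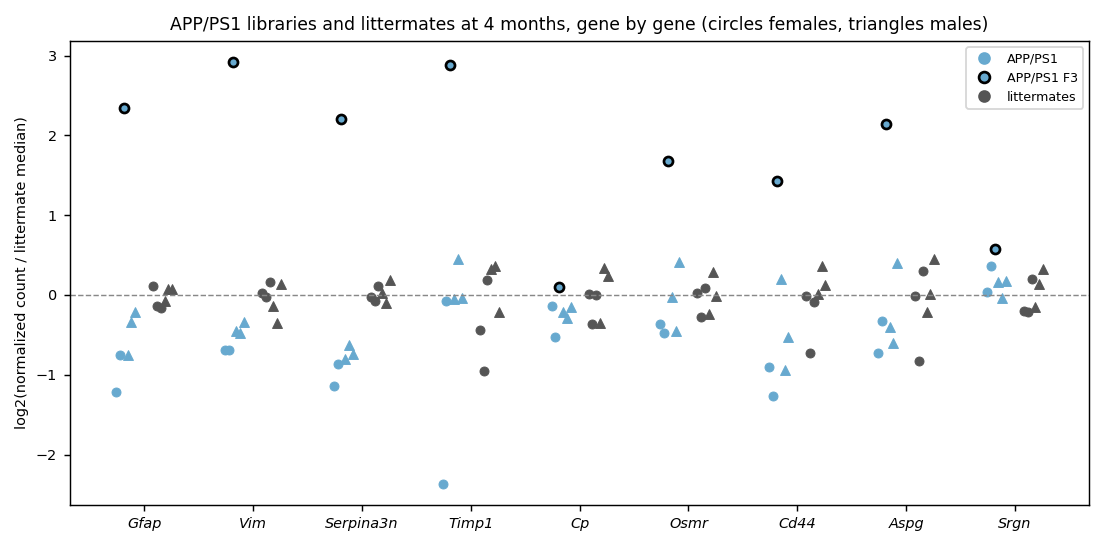
Normalized counts of 9 genes in APP/PS1 and littermate libraries at 4 months, each as log2 of its ratio to the littermate median (circles females, triangles males). The 5 APP/PS1 libraries other than female 3 lie below every littermate for Gfap and Serpina3n, while female 3 (black outline) lies above the other 5 for 9 of 9 genes.

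The regional markers of the same 5 libraries moved with the fall. Of 7 hippocampus markers 6 were lower (median -1.01) and C1ql2, a dentate gyrus synaptic gene, fell by 1.28 on the log2 scale (log2 fold change -1.28, adjusted p = 0.0126). All 7 striatum markers were higher (median 1.33). All 10 meningeal markers were lower (median -1.15), with Lum at -1.24 (adjusted p = 0.0164). The hippocampus sum ran between 239 and 498 CPM in the 5 APP/PS1 libraries and between 431 and 615 CPM in littermates. With the hippocampus markers as a covariate, none of the 10 genes was called and Gfap had -0.13, Vim -0.23 and Serpina3n -0.60 (adjusted p = 0.355), in a fit with 1 call in all. Without the striatum-rich library, APP/PS1 female 1, 906 genes were called. Gfap (-0.54, adjusted p = 0.0059), Vim (-0.45, adjusted p = 0.0246) and Serpina3n (-0.80, adjusted p = 0.0001) were among them. This is the same fit as leaving out that library above, and female 2 is then the only APP/PS1 female. With female 3 the medians were -0.89 for the hippocampus, 1.01 for the striatum and -0.90 for the meningeal markers, with no call in these lists. The markers and the genotype cannot be told apart in these 11 libraries.

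Astrocyte identity genes moved little in the same comparison, with 5 of 16 positive and a median of -0.06, and 1 called, the water channel gene Aqp4 (-0.31, adjusted p = 0.0316). All 4 other pan-reactive genes were lower (median -0.49), led by the sphingosine receptor gene S1pr3 (-0.26, adjusted p = 0.378). Of 10 other A1 genes 8 were lower (median -0.32), led by Fkbp5, a glucocorticoid-responsive chaperone gene (-0.36, adjusted p = 0.0684). Of 12 other disease-associated astrocyte genes 8 were lower (median -0.09), led by C4b (-0.57, adjusted p = 0.0578), and of 16 IL-6 and STAT3 pathway genes 9 were lower (median -0.10), led by Cebpd (-1.49, adjusted p = 0.0787). None of these lists beyond Aqp4 held a call, and microglia markers divided evenly (median -0.01). The 11 A2 genes had a median of -0.17 with 8 lower, and the 6 intermediate filament partners one of 0.01 with 3 lower. With female 3 the medians were -0.04 for astrocyte identity, -0.06 for the other pan-reactive, -0.13 for the other A1, -0.02 for the other disease-associated, -0.01 for the IL-6 and STAT3 and 0.18 for the microglia genes, again with no call in these lists. Only 3 of the 4 other pan-reactive genes passed the filter with female 3, so their 2 medians cover different genes.

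Between treated and untreated APP/PS1 mice no member was called. The fit called 0 of 16124 genes (0%) with APP/PS1 female 3 and 0 of 16070 (0%) without it. DESeq2 called 7 and 5, and edgeR 0 in both, and 477 genes (2.96%) and 467 genes (2.91%) had an unadjusted p under 0.05. With female 3 all 9 tested members were negative (median -0.42). Without it 6 were negative and 3 positive (median -0.17), so that the shared sign rested on that library. The treated libraries numbered 5.

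Srgn was the member with the clearest values. It stood at 106, 97.7, 103, 90.0 and 115 in the 5 treated libraries, against 129, 149 and 195 (lowest, median, highest) in the 6 untreated APP/PS1 libraries. The groups did not overlap, as for 0.155% of genes with the treated group lower, and the means were 102 ± 9.27 (SD, n = 5) and 155 ± 24.4 (SD, n = 6). The log2 fold change was -0.57 (SE 0.15, 95% interval -0.89 to -0.25, unadjusted p = 0.00249 from limma, adjusted p = 0.997). Without APP/PS1 female 3 the groups still did not overlap, as for 0.305% of genes, and the log2 fold change was -0.51 (unadjusted p = 0.0049, adjusted p = 0.991). Serglycin is made by microglia, mast cells and endothelium as well as by reactive astrocytes. The microglia marker sum ran between 330 and 376 CPM in treated and between 314 and 394 CPM in the other 5 untreated APP/PS1 libraries. It stood at 773 CPM in female 3. Of 10 endothelial and pericyte markers 8 were lower in treated mice (median -0.11), and 9 without female 3 (median -0.09). Of 10 meningeal markers 7 were lower (median -0.32), and 6 without female 3 (median -0.20). The part of these cell types in the Srgn difference was not tested. The choroid plexus sum ran between 66.2 and 3990 CPM in treated and between 19.6 and 90.7 CPM in untreated APP/PS1 libraries, all 10 of its markers being higher in the treated group (median 2.55, and 2.498 without female 3). With these markers as a covariate the Srgn value was -0.37, and -0.38 without female 3.

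Gfap spread widely in treated APP/PS1 mice, at 12673 and 7804 in the females and at 3572, 2809 and 7861 in the males. Untreated APP/PS1 mice stood at 4826, 6676 and 56420 in the females and at 6703, 8813 and 9688 in the males. Males 1 and 2 of the treated group lay below every untreated library and the others inside the untreated range. Without untreated female 3 the treated female at 12673 lay above every untreated library. The log2 fold change was -0.66 (SE 0.55) with female 3 and -0.25 (SE 0.37) without it. Vim had -0.42 and 0.07 in the same 2 fits, Serpina3n -0.30 and 0.12, Osmr -0.17 and 0.09, Cd44 -0.40 and -0.10, Aspg -0.70 and -0.32, Cp -0.20 and -0.17 and Timp1 -0.87 and -0.25. Lcn2 was below the filter, at 0 to 4.89 in treated and 0 to 44.1 in untreated libraries. The hippocampus sum ran between 189 CPM (male 1) and 599 CPM (female 1) in treated libraries. It ran between 239 and 498 CPM in untreated libraries without female 3, and its markers had a median of 0.01 in that fit. The striatum sum was highest in treated male 2, at 1221 CPM. The part of region in the Gfap spread and in the sex differences below was not tested.

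Without female 3 several members had opposite signs in the 2 sexes, with none called. Vim had -0.30 in males and 0.64 in females, a difference of -0.94 (SE 0.14, unadjusted p = 5.73e-05 from limma, adjusted p = 0.261). Gfap had -0.95 in males and 0.81 in females (difference -1.76, adjusted p = 0.597), and Cd44 had -0.75 in males and 0.87 in females (difference -1.61, adjusted p = 0.597). These female values rest on 2 treated and 2 untreated libraries. With female 3 the values in females were -0.56 for Vim, -0.30 for Gfap and 0.04 for Cd44. All 16 astrocyte identity genes were lower in treated mice without female 3 (median -0.10), led by the glutamate transporter gene Slc1a3 (-0.17, adjusted p = 0.991), with none called, and 15 of 16 were lower with it (median -0.13).

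The age effect and the APP/PS1 effect come from separate libraries and were compared in a joint fit. It called 7 of 16597 genes (0.0422%) with APP/PS1 female 3 and 20 of 16581 (0.121%) without it, none of them among the 10 in either. With female 3 Timp1 had a negative difference (-0.47). Without it, a choice made on these values, the age effect exceeded the APP/PS1 effect for all 9 genes that passed the filter in both comparisons. Lcn2 is not counted, since it passed the joint filter through the wild-type libraries. The share of all genes with that sign was not computed. Without female 3 the difference was 1.59 (SE 0.43, adjusted p = 0.119) for Gfap, 1.46 (SE 0.43, adjusted p = 0.138) for Serpina3n and 0.83 (SE 0.25, adjusted p = 0.143) for Vim, each with an interval above 0. The treatment effects in old and in APP/PS1 mice differed in 0 of 16384 genes (0%) with female 3 and 0 of 16369 (0%) without it. Without it the difference was -0.36 for Gfap (95% interval -1.48 to 0.76), -0.93 for Serpina3n (-2.20 to 0.34) and 0.24 for Srgn (-0.25 to 0.72), intervals wide enough to hold effects of either sign.

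From library to library most pairs of the 10 genes correlated positively, though unequally. On log2(CPM + 1), with the mean of each group and sex taken off, 44 of the 45 pairs had a positive r over 35 libraries (median r 0.52) and 41 of 45 over 34 without APP/PS1 female 3 (median 0.35). Over all pairs of 14784 genes 53.0% were positive over 35 libraries (median r 0.022) and 53.2% over 34 (median 0.024). The closest pair was Gfap and Serpina3n, at 0.93 over 35 and 0.88 over 34 libraries. Other pairs were near 0 over the 34, such as Gfap and Srgn (0.10), Serpina3n and Aspg (0.05), Cd44 and Timp1 (0.03) and Osmr and Timp1 (-0.05). These are descriptions over libraries that share tissue source and dissection, with no p.

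Of 13774 genes with a mean of at least 1 CPM, Gfap varied most like Mcm6, a replication helicase subunit gene (r 0.95, and 0.94 without female 3), Serpina3n (0.93 and 0.88) and Cebpd (0.91 and 0.92). Serpina3n was closest to Gfap, C4b (0.91 and 0.86) and Mcm6 (0.91 and 0.87). Vim was closest to Ctsd (0.93 and 0.59), Pld4 (0.92 and 0.54) and Msn (0.91 and 0.70), values that dropped without female 3. Osmr was closest to Pxdc1 (0.84 and 0.69), Cflar (0.80 and 0.71) and Rcn3 (0.79 and 0.62). Cp was closest to Serping1 (0.81 and 0.81), Glipr2 (0.79 and 0.80) and Il13ra1 (0.78 and 0.77), and these hardly moved without that library.

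The mean level of the 7 hippocampus markers followed Gfap and Serpina3n over libraries of the same group and sex. Over 34 libraries without APP/PS1 female 3, r was 0.94 for Gfap (Spearman's rho 0.95), 0.89 for Serpina3n (rho 0.87) and 0.47 for Vim (rho 0.44). Without the 2 libraries farthest out on the marker scale, old male 3 and young male 2, the values over 32 libraries were 0.92, 0.84 and 0.30. Cd44 (0.58), Osmr (0.41) and Timp1 (0.27) lay between, and Aspg (0.0004), Srgn (0.04), Cp (0.13) and Lcn2 (0.14) showed little such relation. The mean level of 16 astrocyte identity genes correlated with Gfap at 0.18 and with Serpina3n at 0.02 over the same 34 libraries. It correlated most with Cp (0.53) and Vim (0.42). Meningeal markers correlated with Cp (0.67), Srgn (0.59), Aspg (0.46), Vim (0.43) and Cd44 (0.41). They did so less with Gfap (0.24), Osmr (0.16), Serpina3n (0.09), Timp1 (0.04) and Lcn2 (-0.03). Microglia markers correlated most with Aspg (0.51). How much of the group differences above belongs to the regional or cellular makeup of the samples was not tested beyond the covariate fits given beside them.

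**Figure D4:**
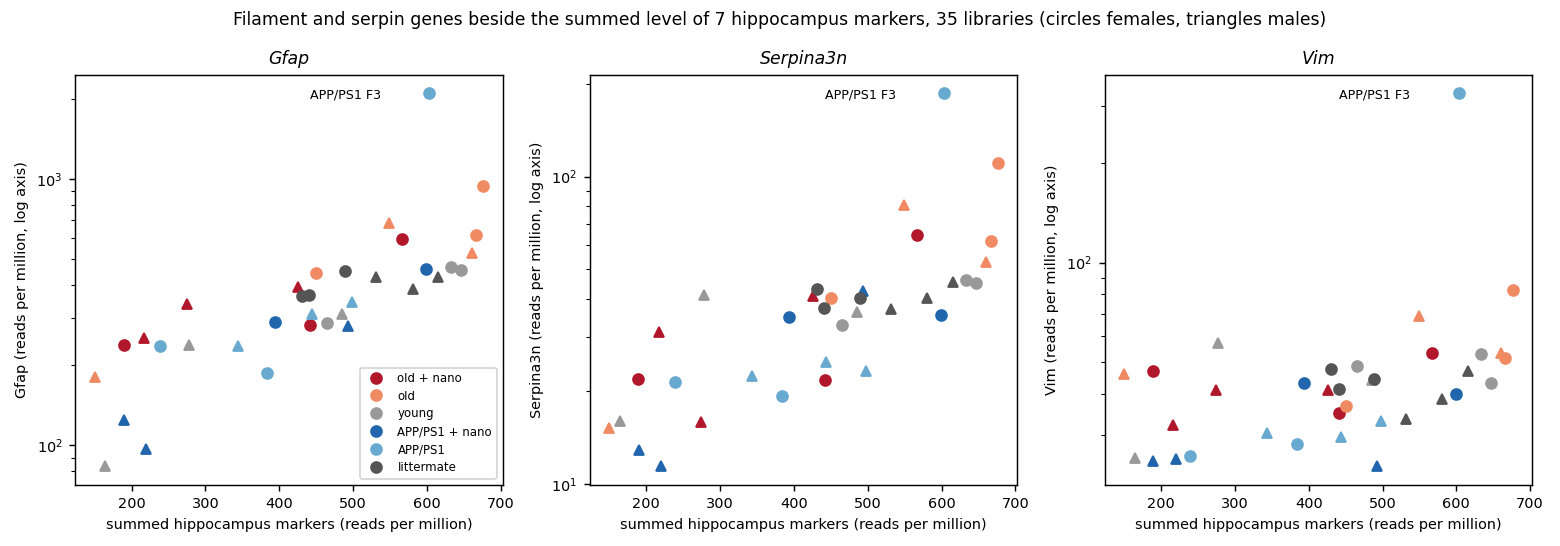
Level of Gfap, Serpina3n and Vim (CPM, log axis) beside the summed level of 7 hippocampus markers (CPM) in 35 libraries coloured by group (circles females, triangles males). Over the 34 libraries other than APP/PS1 female 3, r within group and sex was 0.94 for Gfap, 0.89 for Serpina3n and 0.47 for Vim.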

How the data were processed

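Polyadenylated RNA was sequenced (Illumina TruSeq kits, NovaSeq instrument, per the labels' protocols) from 36 hippocampus samples. Listed in the submitters' processing notes are the genome build mm10 and, with no version, the tools STAR and DESeq2. Counting and annotation were not described in those notes. The authors deposited 4 tables of normalized counts (a linear signal, counts divided by a size factor for each library), each holding 12 libraries and 24421 symbols. Dividing by the step of each library gave whole reads for 100.0% of values (within 0.001), and the 12 libraries present in 2 tables gave identical reads. These reads gave CPM and, with GENCODE vM21 exon lengths, RPKM. No column was unused, and 2349 symbols had no read.

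Each comparison was fitted in its own table with limma 3.58.1 (R 4.3.3) on log2(normalized count + 1), trend on, genes with a mean of at least 10, sex and group as terms, and Benjamini-Hochberg adjustment over all genes tested. A call is an adjusted p under 0.05. Fold changes are on this pseudocount scale, which understates change in low genes. edgeR 4.0.16 (quasi-likelihood) and DESeq2 1.42.0 on the recovered reads were alternatives, as were other filters, pseudocounts, scaling, covariates and leaving out libraries. The design had assumed normalized values, so the count tests stayed alternatives. The group fit of each comparison and its edgeR and DESeq2 alternatives were tested on simulated data. The sex, joint and covariate fits, the correlations, the motif search and the outlier flags were not.

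The members, lists and tests were chosen with earlier results of these data known. All 10 members are named throughout. Genes named from other lists are up to 2 called ones, or the one with the smallest p. For Gfap, Serpina3n, Vim, Osmr and Cp the 3 genes of highest r are named, without predicted genes. Depth limits the low genes, since Lcn2 had 0 reads in some libraries. The column taken for treated APP/PS1 male 3 differs from its title by 1 letter. Replicate numbers did not pair libraries.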

Additional observations from a re-analysis of the deposited data

Results flagged for a closer look

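In groups of 5 or 6 libraries, 13 of the 60 sets formed by a gene and a group held a library separated from the others by more than Dixon's 95% limit, a limit that chance passes in about 1 of 20 sets. Of these 13, 8 fell in APP/PS1 female 3. It stood at 2095 CPM for Gfap, 327 CPM for Vim, 187 CPM for Serpina3n, 1.64 CPM for Lcn2, 21.5 CPM for Osmr, 19.6 CPM for Cd44, 19.2 CPM for Aspg and 12.98 CPM for Timp1. Lcn2 had a separate highest library in 3 further groups, old female 2 at 14.5 CPM, young female 3 at 1.75 CPM and littermate female 3 at 0.557 CPM. Osmr stood at 12.9 CPM in treated APP/PS1 female 2, and Cd44 at 10.2 CPM in treated old female 2.

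The shallow library left out of every comparison, treated APP/PS1 female 3, held reads of 4 members. Of these, 3 stood above the highest untreated APP/PS1 library, Cp at 654 CPM (597 reads) against 16.0 CPM, Cd44 at 481 CPM (439 reads) against 19.6 CPM and Osmr at 206 CPM (188 reads) against 21.5 CPM. Vim stood at 103 CPM (94 reads), below the highest untreated APP/PS1 library, and Gfap had 0 reads.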

How the results depend on the processing

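Over all settings 1370 values of single genes kept their direction and their side of the threshold, 63 changed sign, 23 lost and 3 gained a call, and 274 counts stayed within 1.5 times the value reported while 38 did not. The causes were not tested. For age, 6 genes were called, 123 by DESeq2, 1 with the replicate block and 4 to 11 leaving out a library, with 1 member by DESeq2. Treatment of old mice gave 2 genes by DESeq2. For APP/PS1 with female 3 (8 genes), DESeq2 gave 256, the choroid plexus covariate 2, the hippocampus covariate 4, no striatum-rich library 21 and leaving out a library 6 to 256, with 0 to 3 members. Without female 3 (256 genes, 3 members), DESeq2 gave 803 genes, no sex term 84, the replicate block 84, the choroid plexus covariate 25, the hippocampus covariate 1, no striatum-rich library 906 and leaving out a library 60 to 906. Members called there were 1 with no sex term, 1 with the replicate block, 1 with the choroid plexus covariate (Serpina3n each time), 0 with the hippocampus covariate and 1 to 3 leaving out a library. Treatment of APP/PS1 mice gave 1 gene with no filter and 7 by DESeq2, and 5 by DESeq2 without female 3. Replicate numbers deviated together, past a correlation of 0.1, in 1 of 6 pairs for age, 0 of 6 for old treatment, 1 of 6 for APP/PS1 and 1 of 5 for its treatment, so the block marks a shared number only.

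Signs turned as follows. Treatment of old mice, Timp1: -0.018 by edgeR, -0.020 by DESeq2, -0.17 without striatum-rich libraries, -0.082 to 0.25 leaving out a library. APP/PS1 with female 3: Gfap 0.32 by edgeR and by DESeq2, 1.18 with the hippocampus covariate, 0.12 without striatum-rich libraries, Serpina3n 0.073, 0.069 and 0.81 in the first 3 of these, Cd44 0.0032, 0.0041 and 0.24, and with the choroid plexus covariate Aspg -0.075 and Timp1 -0.21. Leaving out a library there gave Gfap -0.67 to 0.12, Vim -0.50 to 0.30, Osmr -0.18 to 0.30, Aspg -0.31 to 0.32 and Timp1 -0.37 to 0.78. Without female 3: Aspg 0.14 and Timp1 0.60 with the hippocampus covariate, Timp1 0.084 without the striatum-rich library and -0.65 to 0.084 leaving out a library. Treatment of APP/PS1 mice with the replicate block, which drops female 3 as it has no partner: Vim 0.073, Serpina3n 0.12, Osmr 0.093. Timp1 was 0.080 with the choroid plexus covariate, and keeping the shallow library gave Osmr 0.51, Cd44 0.58 and Cp 0.65. Leaving out a library gave Vim -0.65 to 0.073, Serpina3n -0.59 to 0.12 and Osmr -0.42 to 0.093. Without female 3 the choroid plexus covariate gave Vim -0.38, Serpina3n -0.24 and Osmr -0.10, and leaving out a library Gfap -0.52 to 0.014, Vim -0.026 to 0.15, Serpina3n -0.14 to 0.36, Osmr -0.20 to 0.27, Cd44 -0.30 to 0.16 and Timp1 -0.55 to 0.12. Between the treatments, Vim was -0.0031 with TMM scaling, and with the shallow library Vim -0.094, Serpina3n 1.14 and Cp -0.80.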

Other observations

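Genes of activated microglia and the complement gene C4b, which is also on the disease-associated astrocyte list, stood out in the library in which most of the 10 genes were highest. These 5 genes were chosen after their values were seen. In APP/PS1 female 3 Cst7, a lysosomal cystatin, stood at 8.60 CPM against 0 to 0.331 CPM in the other 5 APP/PS1 libraries, Itgax, an integrin subunit, at 8.52 CPM against 0.267 to 1.06 CPM, and Clec7a, the receptor dectin-1, at 5.05 CPM against 0.0558 to 0.251 CPM. C4b stood at 203 CPM against 26.3 to 50.2 CPM, and Tyrobp, the adaptor of Trem2, at 35.3 CPM against 6.01 to 10.99 CPM. For each of the 5 genes the highest of the other 34 libraries was old female 2, at 2.42 CPM for Cst7, 5.83 CPM for Itgax, 5.19 CPM for Clec7a, 423 CPM for C4b and 21.2 CPM for Tyrobp. Old female 2 was also the highest old library for 8 of the 10 reactive astrocyte genes and carried the highest Lcn2 of the series. Each of these is 1 library with no replicate.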
